A study of Homo sapiens with 2 samples.

Results

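The claudins are small membrane proteins with 4 crossings of the membrane, and they form the strands of tight junctions, the seals between neighbouring epithelial cells. Some claudins tighten the seal, others line pores that let ions pass between cells, and the set that a cell makes sets how leaky its layer is. Human embryonic stem cells (hESCs) grow as an epithelial sheet, which the cells of the primitive streak leave by loosening their junctions and which amnion and trophectoderm keep. Of the 33538 genes in the files, 6 were taken by symbol: CLDN3, CLDN4, CLDN6, CLDN7, CLDN10 and CLDN11. All 6 were found in both libraries, and 18 further claudin genes and 20 genes of tight-junction partners were used for comparison. The 6 were chosen with earlier results of these data known. Counts of members set beside shares of all genes therefore describe these members and test nothing.

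The data were single-cell RNA counts of H1, an established hESC line, after 48 h in mTeSR1 medium with 50 ng/ml of the signal BMP4. There was 1 library per group: the library labelled WT came from H1 cells, and the library labelled GATA3 KO came from 1 clone targeted with Cas9 at the gene of the transcription factor GATA3. That clone descended from an H1 line with an inducible Cas9 cassette, so genotype, clone and cassette cannot be told apart. The title and recorded duration of the library labelled WT gave 48 h while its protocol text gave 1 h, and 48 h was used.

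The unit is a unique molecular identifier (UMI), 1 captured RNA molecule read at its 3′ end. After the limits of the study on detected genes and mitochondrial share, 2519 of 3802 cells labelled WT and 4450 of 6221 cells labelled GATA3 KO were used, with medians of 44415 and 43131.5 UMIs. The libraries shared 8 barcodes. GATA3 itself stood at 12.7 and 10.9 CPM (a gene's UMIs scaled to a total of 1000000), a 3′ count that does not check a lesion in the coding sequence. With 1 library per group no test was possible, and every interval given is a 95% interval that covers counting error only.

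Cells were sorted in silico into classes by SOX2, a factor of pluripotent and neural cells, MIXL1, a homeobox factor of the primitive streak, and TFAP2A, an AP-2 factor of surface ectoderm, amnion and trophectoderm. Each cell was thinned to 10000 UMIs, and a cell with at least 1 UMI of 1 of these genes and none of the other two was placed in that class. Of the cells labelled WT, 959 were SOX2-positive, 418 MIXL1-positive and 132 TFAP2A-positive, while 341 held none of the 3 genes and 323 held more than 1. Labelled GATA3 KO, the counts were 3043, 16, 328, 198 and 453. The 16 MIXL1-positive cells were too few for any call. The classes carried the markers of their names: 5 primitive streak genes summed to 346.5 CPM in MIXL1-positive against 33.7 CPM in SOX2-positive cells labelled WT. The 7 amnion and trophectoderm genes summed to 294.5 CPM in TFAP2A-positive cells labelled WT and 287.5 CPM in those labelled GATA3 KO, against 15.3 and 10.7 CPM in SOX2-positive cells, although VTCN1 was at or near 0 and GABRP reached 7.54 CPM at most. The 4 hESC genes other than SOX2, which are POU5F1, NANOG, LIN28A and TDGF1, were detected in every class and summed to 2042 CPM in SOX2-positive, 1625 CPM in MIXL1-positive and 1262 CPM in TFAP2A-positive cells labelled WT. Over the same 3 classes, 4 endoderm genes summed to 0.951, 37.0 and 41.0 CPM, 5 early neural genes to 65.2, 10.8 and 19.8 CPM, and 4 fibroblast genes, of which COL1A1 was the only one at 5 CPM or more, to 21.9, 6.66 and 13.5 CPM. The endoderm genes stood at 1.13 CPM in TFAP2A-positive cells labelled GATA3 KO. What such cells added to the claudin levels was not tested.

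The annotated spans of CLDN3 (GRCh38 chr7:73768997-73770270, minus strand) and CLDN4 (chr7:73799542-73832690, plus strand) lie 29.3 kb apart. Each of these genes has 1 exon in its main transcript. The CLDN4 promoter window printed below (chr7:73830746-73831045) lies near the end of its span that is far from CLDN3. CLDN6 (chr16:3014712-3020071, minus strand) has 2 exons, CLDN7 (chr17:7259903-7263983, minus strand) has 4, CLDN10 (chr13:95433604-95579759, plus strand) has 5 and CLDN11 (chr3:170418868-170454733, plus strand) has 3. CLDN10 is known to start from alternative first exons that give an anion-selective and a cation-selective form, which a 3′ count cannot separate. CLDN6 overlaps TNFRSF12A, CLDN7 overlaps ELP5, and CLDN10 overlaps DZIP1 and CLDN10-AS1, each on the opposite strand. CLDN11 overlaps SLC7A14-AS1 and MIR6828 on its own strand, and both CLDN7 and CLDN11 overlap an unnamed gene on their own strand, so reads may be shared there. Between the last 600 bases of a member's main transcript and those of the other 23 claudins, the longest exact run was 13 bases, far shorter than a read.

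The promoter windows of CLDN3, CLDN4 and CLDN10 are shown because these members were at least 2-fold higher in TFAP2A-positive than in MIXL1-positive cells. Each is 300 bases of RefSeq sequence (GRCh38.p14), 250 before and 50 after an annotated start, written 5′ to 3′ along the gene. Capitals mark GCCNNNGGC, the letters of the AP-2 factor motif, which reads the same on both strands.
CLDN10, upstream start, chr13:95433505-95433804, plus strand: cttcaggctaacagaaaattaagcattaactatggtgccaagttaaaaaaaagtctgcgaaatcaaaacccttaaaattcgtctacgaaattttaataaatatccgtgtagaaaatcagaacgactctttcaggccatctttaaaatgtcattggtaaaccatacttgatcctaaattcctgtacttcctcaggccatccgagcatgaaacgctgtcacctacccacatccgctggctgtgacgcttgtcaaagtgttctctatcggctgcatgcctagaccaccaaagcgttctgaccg
CLDN10, downstream start, chr13:95552470-95552769, plus strand: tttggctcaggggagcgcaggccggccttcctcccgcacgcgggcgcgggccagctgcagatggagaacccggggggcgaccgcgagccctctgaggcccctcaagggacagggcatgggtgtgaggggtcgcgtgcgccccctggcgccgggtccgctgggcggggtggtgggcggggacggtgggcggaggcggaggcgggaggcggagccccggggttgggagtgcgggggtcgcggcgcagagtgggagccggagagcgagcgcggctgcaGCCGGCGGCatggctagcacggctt
CLDN4, chr7:73830746-73831045, plus strand: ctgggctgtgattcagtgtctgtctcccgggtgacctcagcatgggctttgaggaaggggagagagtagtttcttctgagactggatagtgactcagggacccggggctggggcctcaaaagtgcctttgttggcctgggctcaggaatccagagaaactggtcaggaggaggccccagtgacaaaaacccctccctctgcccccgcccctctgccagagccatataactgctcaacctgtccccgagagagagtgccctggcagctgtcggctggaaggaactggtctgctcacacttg
CLDN3, chr7:73770221-73770520, minus strand: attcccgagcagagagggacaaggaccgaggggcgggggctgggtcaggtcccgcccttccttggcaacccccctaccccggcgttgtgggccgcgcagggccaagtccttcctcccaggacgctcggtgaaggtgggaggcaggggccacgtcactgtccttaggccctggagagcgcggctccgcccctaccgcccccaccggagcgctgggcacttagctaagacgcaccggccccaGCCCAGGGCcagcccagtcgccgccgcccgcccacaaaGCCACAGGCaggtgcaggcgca
The downstream CLDN10 window held 1 match and the CLDN3 window held 2, while the upstream CLDN10 window and the CLDN4 window held none. Over all 6 genes, 3 of 9 windows had a match, beside 23.2% of the 35116 RefSeq windows of this length. CAGGTG, the E-box letters of SNAI and ZEB factors, was found on either strand in 3 of 9 windows, 5 times in 1 of the CLDN7 windows, beside 20.6% of all windows. In CLDN3 an E-box and an AP-2 match overlapped by 1 base. GATAA matched only a CLDN6 window (22.7% of all windows) and CATTGT, the letters of SOX factors, matched no member window (10.8% of all).

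CLDN10, a pore-forming claudin that lets chosen ions pass between cells, was the member with the sharpest pattern over cell classes. In the library labelled WT it stood at 87.8 CPM (85.0 to 90.6) in SOX2-positive cells, at 87.4 CPM (83.3 to 91.6) in MIXL1-positive cells and at 2119 CPM (2082 to 2158) in TFAP2A-positive cells. The first 2 of these levels had overlapping intervals, and TFAP2A-positive cells were 24.1-fold above SOX2-positive cells (log2 4.58, 4.53 to 4.63). Its level labelled GATA3 KO was 76.4 CPM (74.9 to 77.9) in SOX2-positive and 3044 CPM (3016 to 3072) in TFAP2A-positive cells, a 39.9-fold difference (log2 5.30, 5.27 to 5.33). Cells without a class gene stood between, at 675 CPM labelled WT and 829 CPM labelled GATA3 KO. All log2 ratios here were taken on CPM + 1.

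**Figure D1:**
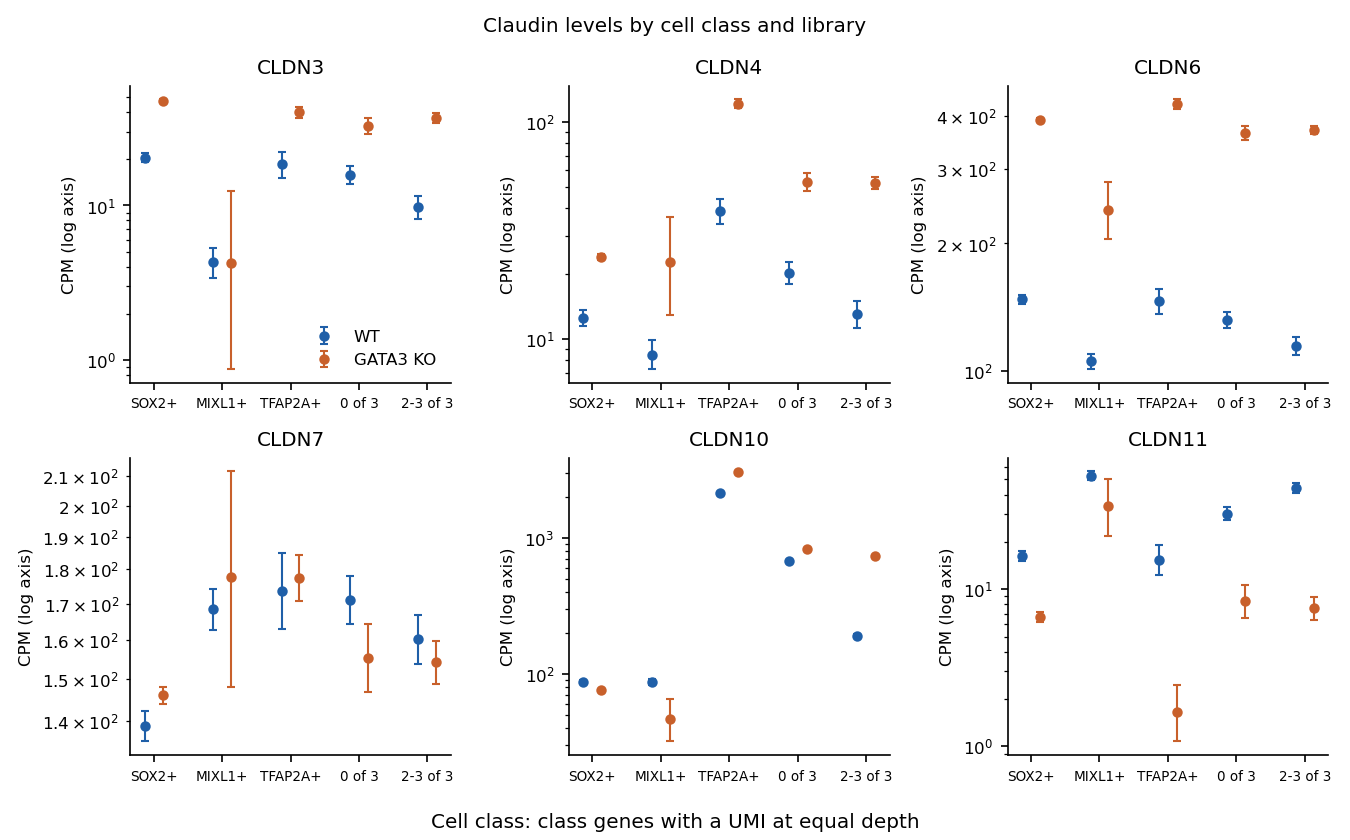
Level of each claudin (CPM, log axis) in each cell class of both libraries, with points for the summed counts of a class, bars for 95% counting intervals, and "0 of 3" and "2-3 of 3" for cells with none or more than 1 class gene. CLDN10 is highest in TFAP2A-positive cells of both libraries (2119 and 3044 CPM), CLDN6 is higher in every class labelled GATA3 KO, and CLDN11 peaks in MIXL1-positive cells labelled WT (52.9 CPM).

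Per cell, CLDN10 formed a long tail rather than a shift of all cells. At 10000 UMIs a cell, 54.7% of cells labelled WT and 51.2% of cells labelled GATA3 KO had at least 1 CLDN10 UMI, with a median of 1 UMI in these cells and a highest count of 114 and 108. The tenth of cells with the most CLDN10 held 80.4% and 82.3% of its UMIs. A value of 10 UMIs, chosen after the counts were seen, was used to describe the tail: 147 cells labelled WT (6.76%, exact interval 5.74% to 7.90%) and 430 labelled GATA3 KO (10.6%, 9.71% to 11.6%) reached it. Near this value, 55 and 88 cells held 5 to 9 UMIs, and 36 and 110 held 10 to 19.

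TFAP2A-positive cells reached 10 CLDN10 UMIs in 66 of 132 cells labelled WT (50.0%, 41.2% to 58.8%) and in 266 of 328 labelled GATA3 KO (81.1%, 76.4% to 85.2%). SOX2-positive cells did so in 5 of 959 (0.521%) and 21 of 3043 (0.690%). The median TFAP2A-positive cell held 9.5 CLDN10 UMIs in the library labelled WT and 29 in the library labelled GATA3 KO. These classes also differed in TFAP2A: 58 of the 132 cells labelled WT and 223 of the 328 labelled GATA3 KO held at least 2 TFAP2A UMIs. Its part in the CLDN10 shares and medians was not tested. Among cells at 10 CLDN10 UMIs or more the summed level was 3669 CPM labelled WT and 3330 CPM labelled GATA3 KO. Among the remaining cells it was 90.9 and 81.7 CPM. These levels were taken in cells picked by CLDN10 itself and do not compare its level between the libraries. In the library labelled WT, 38.8% of them held none of the 3 class genes, against 11.6% in the library labelled GATA3 KO.

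**Figure D2:**
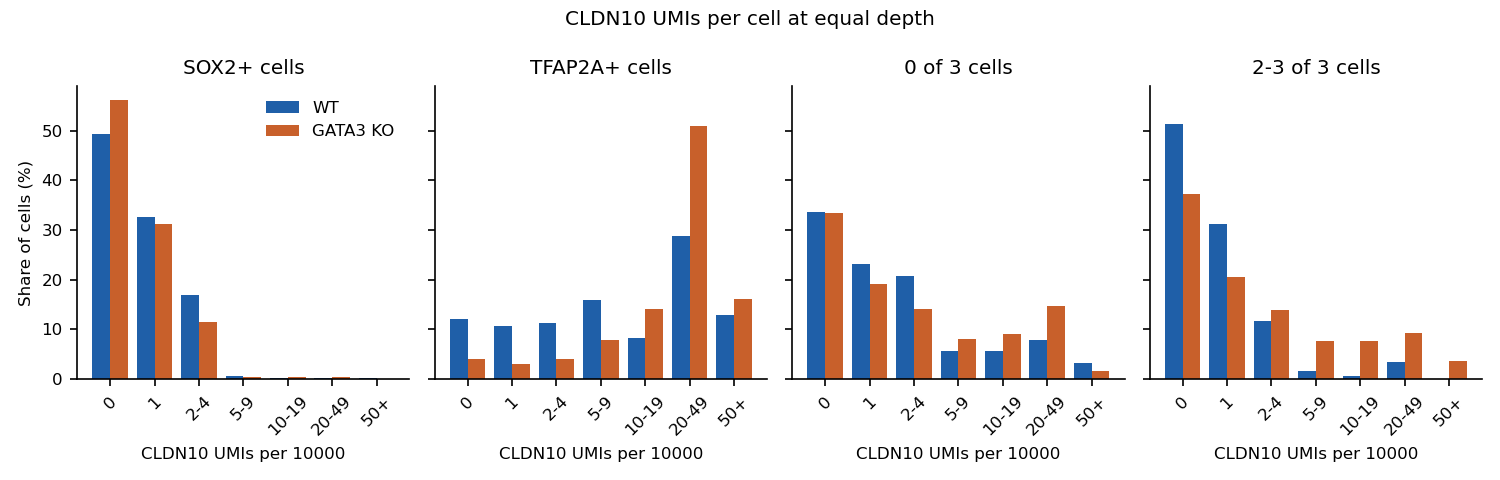
Share of cells (%) by CLDN10 UMIs in a cell thinned to 10000 UMIs, for 4 cell classes and both libraries. SOX2-positive cells sit almost wholly under 5 UMIs, and TFAP2A-positive cells spread to 50 UMIs and more, with 50.0% of those labelled WT and 81.1% of those labelled GATA3 KO at 10 or more.

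The low CLDN10 level outside the tail was near that of a UMI a cell, since 50.6% of SOX2-positive and 48.8% of MIXL1-positive cells labelled WT had any. The lowest share of any class with over 50 cells was 48.6% labelled WT and 43.8% labelled GATA3 KO, at medians of 46896 and 44645 UMIs before thinning. Lower shares were seen in MIXL1-positive cells labelled GATA3 KO, at 18.75% of the 16 cells. Where other class genes were allowed, it was 33.75% of 80 such cells. HPGD, the gene most like CLDN10, gave 1.99 CLDN10 UMIs per HPGD UMI in SOX2-positive, 0.675 in MIXL1-positive and 1.62 in TFAP2A-positive cells labelled WT. What free RNA added to this floor was not tested, and no expression is read from it.

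CLDN10 was higher in cells with more TFAP2A UMIs. Labelled WT it stood at 186 CPM in cells without a TFAP2A UMI, at 840.0 CPM with 1, at 1825 CPM with 2 and at 2096 CPM with 3 or 4. With the GATA3 KO label the levels were 118, 977, 2411 and 2742 CPM, and 3685 CPM with 5 or more. The opposite order was seen over SOX2 labelled GATA3 KO, from 2195 CPM in cells without SOX2 to 54.1 CPM in cells with 8 UMIs or more. Cells with 10 CLDN10 UMIs or more carried GATA3 in 36.7% labelled WT and 47.0% labelled GATA3 KO, against 7.55% and 2.33% of the remaining cells. The heart and amnion factor HAND1 was found in 29.3% and 39.1% of them, against 2.96% and 0.859% of the others. SOX2 was found in 9.52% and 26.5%, against 58.8% and 93.6%.

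Across single cells, genes with a pattern like that of CLDN10 included HPGD, which breaks down prostaglandins, and the ligand gene BMP4. Pearson correlations of log2(1 + UMIs) over 2173 cells labelled WT were 0.69 and 0.53, and over 4038 cells labelled GATA3 KO they were 0.80 and 0.73. They came from 8914 genes found in at least 5% of cells of both libraries. These are descriptions of cells that share 1 library each.

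CLDN4, a barrier-forming claudin and receptor of a clostridial enterotoxin, was the only other member at least 2-fold higher in TFAP2A-positive than in SOX2-positive cells of both libraries. Its level was 12.5 CPM (11.5 to 13.6) in SOX2-positive and 38.7 CPM (33.8 to 44.2) in TFAP2A-positive cells labelled WT, 3.10-fold apart (log2 1.56, 1.33 to 1.78). Labelled GATA3 KO it was 23.9 CPM (23.1 to 24.8) and 121.4 CPM (115.9 to 127.1), 5.08-fold apart (log2 2.30, 2.22 to 2.38). At equal depth 28.8% of TFAP2A-positive cells labelled WT and 66.8% of those labelled GATA3 KO had a CLDN4 UMI, against 9.70% and 19.5% of SOX2-positive cells. Thus 2 of 6 members were at least 2-fold higher in TFAP2A-positive cells labelled WT, where 3.85% of 9397 genes were higher and 3.66% lower, and none was lower. Among cells labelled GATA3 KO, 2 of 5 members over the minimum of 5 CPM were higher, where 4.76% of 9535 genes were higher and 5.14% lower, and none of them was lower. CLDN11 was under the minimum there, at 1.66 against 6.66 CPM (log2 -1.53, -1.89 to -1.14).

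Members with smaller ratios between TFAP2A-positive and SOX2-positive cells were CLDN3, CLDN6, CLDN7 and, labelled WT, CLDN11. For CLDN6 the log2 ratio was -0.01 (-0.12 to 0.09) labelled WT and 0.13 (0.09 to 0.16) labelled GATA3 KO, and for CLDN7 it was 0.32 (0.22 to 0.42) and 0.28 (0.22 to 0.34). CLDN3 gave -0.13 (-0.42 to 0.15) and -0.23 (-0.35 to -0.11). CLDN11 labelled WT gave -0.08 (-0.39 to 0.22), and with overlapping classes 0.33. At equal depth the median TFAP2A-positive cell held UMIs of 3 of the 6 claudins labelled WT and of 4 labelled GATA3 KO, against 2 and 3 in the median SOX2-positive cell. Cells with no UMI of any member were rare, at 17 of 959 SOX2-positive cells labelled WT and 11 of 3043 labelled GATA3 KO.

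CLDN4 was higher in the cells with much CLDN10. A CLDN4 UMI was seen in 34.0% of cells with 10 CLDN10 UMIs or more labelled WT and in 10.2% of the remaining cells. Labelled GATA3 KO the shares were 64.9% and 21.2%. CLDN4 stood at 45.1 CPM in these CLDN10-high cells against 12.5 CPM elsewhere (WT), and at 121.9 against 26.3 CPM (GATA3 KO). Over single cells CLDN4 and CLDN10 had r = 0.21 labelled WT and r = 0.40 labelled GATA3 KO, and the genes most like CLDN4 were HPGD (0.24 and 0.39), CLDN10 and the fibronectin gene FN1 (0.21 and 0.36). Each of the other 14 pairs of members lay between -0.13 and 0.08 in both libraries. CLDN3, CLDN6, CLDN7 and CLDN11 had no gene at r of 0.2 in both libraries.

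MIXL1-positive cells of the library labelled WT differed from SOX2-positive cells in 2 members. CLDN11, known from myelin and from the blood-testis barrier, stood at 52.9 CPM (49.7 to 56.2) in MIXL1-positive and at 16.4 CPM (15.2 to 17.6) in SOX2-positive cells, 3.23-fold higher (log2 1.63, 1.501 to 1.77). CLDN3, a barrier-forming claudin of many epithelia, stood at 4.29 CPM (3.42 to 5.30) against 20.3 CPM (18.96 to 21.7), 4.73-fold lower (log2 -2.01, -2.28 to -1.74). So 1 of 6 members was higher, beside 2.08% of 9412 genes, and 1 was lower, beside 1.67%. CLDN4 (8.47 against 12.5 CPM, log2 -0.51) and CLDN6 (105.5 against 147.7 CPM, log2 -0.48) were lower by less than 2-fold. CLDN7 (168.6 against 138.8 CPM, log2 0.28) was slightly higher, and for CLDN10 the interval of the ratio held 0 (log2 -0.01, -0.09 to 0.07).

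The direct comparison of TFAP2A-positive with MIXL1-positive cells labelled WT set 3 of 6 members higher and 1 lower, beside 2.82% and 1.86% of 9270 genes. CLDN10 was 24.3-fold, CLDN4 4.57-fold and CLDN3 4.30-fold higher in TFAP2A-positive cells. CLDN11 was 3.43-fold lower, at 15.4 CPM (12.4 to 19.01) against 52.9 CPM. With overlapping classes, where a cell may carry several class genes, the CLDN11 log2 ratio of -1.71 moved to -0.85 and was no longer a 2-fold difference.

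Within the library labelled WT the levels of CLDN3 and CLDN11 ran in opposite order over MIXL1. CLDN3 stood at 19.2 CPM in cells without MIXL1, then at 10.1, 5.17, 4.29 and 1.94 CPM in cells with 1, 2, 3 to 4 and at least 5 MIXL1 UMIs. CLDN11 stood at 19.5, 41.3, 67.8, 46.2 and 54.6 CPM in the same cells, so its level reached its highest value at 2 UMIs and did not climb further. CLDN4 went from 16.9 to 5.34 CPM and CLDN6 from 144.4 to 97.2 CPM over the same range. CLDN7 stayed between 149.4 and 175.1 CPM. Over SOX2 the order turned: CLDN11 stood at 39.6 CPM without SOX2 and at 9.44 CPM with at least 8 UMIs, while CLDN3 stood at 9.81 and 18.9 CPM. A CLDN3 UMI was seen in 9.15% of cells with CLDN11 and in 14.5% of cells without it.

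**Figure D3:**
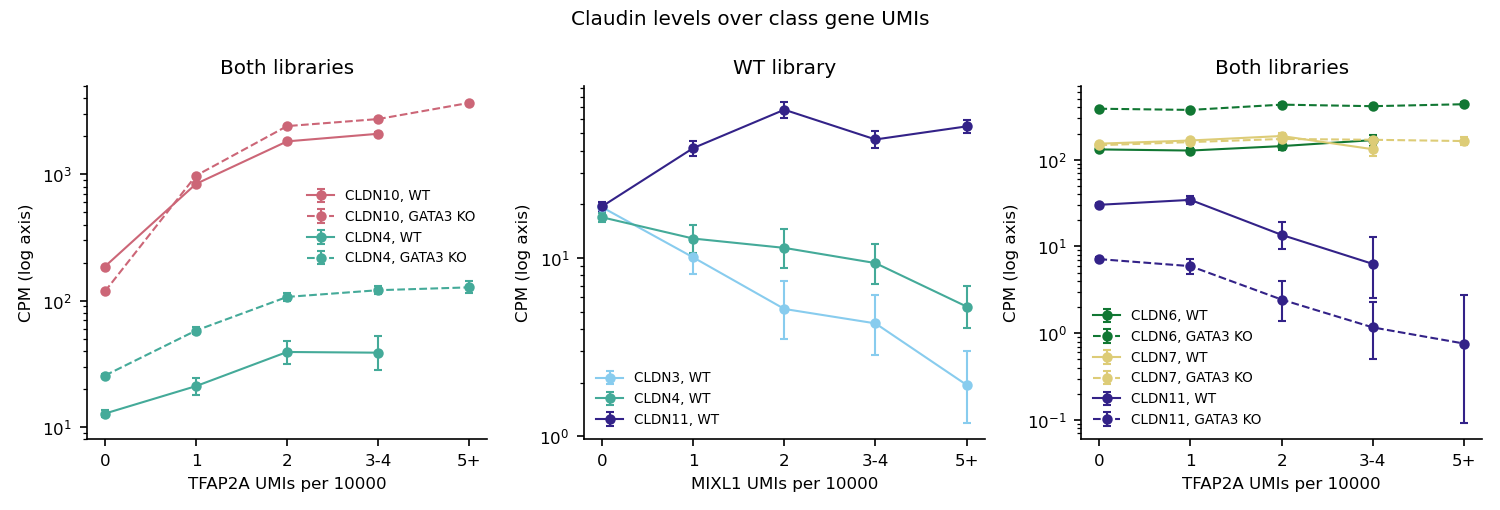
Claudin levels (CPM, log axis) in cells binned by UMIs of TFAP2A (left and right, WT solid and GATA3 KO dashed) or MIXL1 (middle, WT) after thinning, with 95% counting intervals and bins of at least 20 cells. CLDN10 is higher in cells with TFAP2A than without. In the bins shown, CLDN11 is lower at 2 TFAP2A UMIs or more than in cells without (in WT after 34.4 CPM at 1 UMI). The 4 cells labelled WT with 5 TFAP2A UMIs or more are not shown and had 63.2 CPM (31.5 to 113) of CLDN11. CLDN3 goes from 19.2 to 1.94 CPM over MIXL1 while CLDN11 is lowest in cells without it.

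Known regulators of epithelial genes were read in the same classes. GRHL2, an activator of epithelial junction genes, stood at 7.45 CPM in SOX2-positive and 11.2 CPM in TFAP2A-positive cells labelled WT, and at 6.18 and 29.7 CPM in those labelled GATA3 KO. The repressor SNAI1 stood at 8.07 CPM in MIXL1-positive and 2.06 CPM in SOX2-positive cells labelled WT. SNAI2, ZEB1 and ZEB2 reached 3.49 CPM at most in any class. The splicing factor ESRP1 stood between 38.1 and 58.3 CPM over the 10 classes. Their part in the claudin levels was not tested.

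Between the whole libraries, 3 of 6 members were at least 2-fold higher in the library labelled GATA3 KO, beside 2.23% of 9588 genes, and 1 was at least 2-fold lower, beside 1.95%. The median log2 ratio of the 6 members was 0.87, and that of all genes over the minimum was 0.07. Since the 6 were chosen with earlier results of these data known, this is a description only. CLDN6, known as a claudin of pluripotent and embryonic cells, had 132 CPM (130.0 to 134.5) in WT-labelled cells and was 2.94-fold higher, at 389 CPM (386 to 392), in GATA3 KO-labelled cells (log2 1.55, 1.52 to 1.58). CLDN3 had 14.7 CPM (14.0 to 15.5) and 44.5 CPM (43.5 to 45.5), 3.02-fold higher (log2 1.53). CLDN4 had 14.8 CPM (14.0 to 15.5) and 36.9 CPM (36.0 to 37.8), 2.50-fold higher (log2 1.26). CLDN11 had 29.8 CPM (28.7 to 30.9) and 6.54 CPM (6.16 to 6.93), 4.56-fold lower (log2 -2.03).

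CLDN10 had 320.5 CPM labelled WT and 443 CPM labelled GATA3 KO (log2 0.47, 0.45 to 0.49), under the 2-fold call. As a mean of per-cell CPM, which weights shallow cells as much as deep ones, its log2 ratio was 0.02 and that of CLDN4 was 0.94, also under 2-fold. CLDN7, which binds the adhesion protein EPCAM in epithelia, had 154.8 and 149.96 CPM (log2 -0.05, -0.07 to -0.02).

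The classes took different shares of the 2 libraries, so the ratios were also taken within each class. No share over all genes was taken within classes. Genes outside the family also differed there. In SOX2-positive cells POU5F1 had 926 CPM labelled WT and 1484 CPM labelled GATA3 KO, and GAPDH had 3582 and 6094 CPM, both under 2-fold. NANOG had 79.0 and 57.0 CPM in the same cells. CLDN6 was higher in every class labelled GATA3 KO: by 2.64-fold in SOX2-positive, 2.91-fold in TFAP2A-positive, 2.27-fold in MIXL1-positive and 2.76-fold in cells without a class gene, and by 3.23-fold in cells with more than 1. Between classes its level ran from 105.5 to 147.7 CPM labelled WT and from 239.9 to 426.0 CPM labelled GATA3 KO, lowest in MIXL1-positive cells of both. CLDN3 was 2.33-fold higher in SOX2-positive cells, 2.17-fold in TFAP2A-positive cells, 2.08-fold in cells without a class gene and 3.79-fold in cells with more than 1. In MIXL1-positive cells its ratio was log2 -0.01 (-1.52 to 1.37), from 3 UMIs labelled GATA3 KO. CLDN4 was 1.91-fold higher in SOX2-positive cells (log2 0.88, 0.76 to 1.01) and 3.13-fold in TFAP2A-positive cells (log2 1.62, 1.43 to 1.83), and the intervals of these ratios did not overlap. It was 2.63-fold higher in cells without a class gene, 4.03-fold in cells with more than 1 and 2.67-fold (log2 1.32, 0.53 to 2.03) in MIXL1-positive cells. The cells with more than 1 class gene were unlike between the libraries. Their primitive streak genes summed to 249.8 CPM labelled WT and 26.4 CPM labelled GATA3 KO, and their amnion and trophectoderm genes to 37.2 and 80.9 CPM. The part of this makeup in the claudin ratios of that class was not tested.

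CLDN11 was lower in every class labelled GATA3 KO, by 2.46-fold in SOX2-positive cells (16.4 against 6.66 CPM) and by 9.29-fold in TFAP2A-positive cells (15.4 against 1.66 CPM, from 25 UMIs). The TFAP2A-positive cells also differed in the 5 primitive streak genes, which summed to 68.2 CPM labelled WT, with 4 of 5 at 5 CPM or more, and to 12.8 CPM labelled GATA3 KO, with 1 of 5. In SOX2-positive cells the same genes summed to 33.7 CPM labelled WT and 5.66 CPM labelled GATA3 KO, and SOX2 itself had 276 and 468 CPM. The part of these differences in the CLDN11 ratios was not tested. In the 16 MIXL1-positive cells labelled GATA3 KO, CLDN11 stood at 33.9 CPM (21.7 to 50.4) from 24 UMIs. In the 80 such cells found when other class genes were allowed it stood at 25.2 CPM (20.3 to 31.0). CLDN3 had 4.23 CPM from 3 UMIs in the 16 cells and 22.4 CPM (17.8 to 27.9) in the 80 cells. CLDN7 lay within 139 to 178 CPM in all 10 classes of both libraries.

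When each library's class levels were weighted by the UMI shares of the classes labelled WT, 3 of 6 members were still at least 2-fold higher, beside 1.89% of 9541 genes, and 1 was lower, beside 1.35%. The log2 ratio was 1.42 for CLDN6, 1.17 for CLDN3, 1.34 for CLDN4, 0.55 for CLDN10, 0.02 for CLDN7 and -1.22 for CLDN11. The same cells without weighting gave 1.56, 1.54, 1.29, 0.51, -0.04 and -2.04. Under this weighting 20.2% of the weight fell on MIXL1-positive cells, and so on the 16 such cells labelled GATA3 KO, which gave 55.8% of the weighted CLDN11 level there. With their level at the bounds of its interval the CLDN11 ratio was -1.52 or -0.90, so its 2-fold call held at only 1 of these bounds. Without the MIXL1-positive class, an alternative chosen after the data were seen, it was -1.69. The other ratios were then 1.47 for CLDN6, 1.23 for CLDN3, 1.34 for CLDN4, 0.61 for CLDN10 and 0.002 for CLDN7. No share over all genes was taken for this alternative. The weighting moved CLDN11 and CLDN3 most, the members that differed most between MIXL1-positive and SOX2-positive cells.

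**Figure D4:**
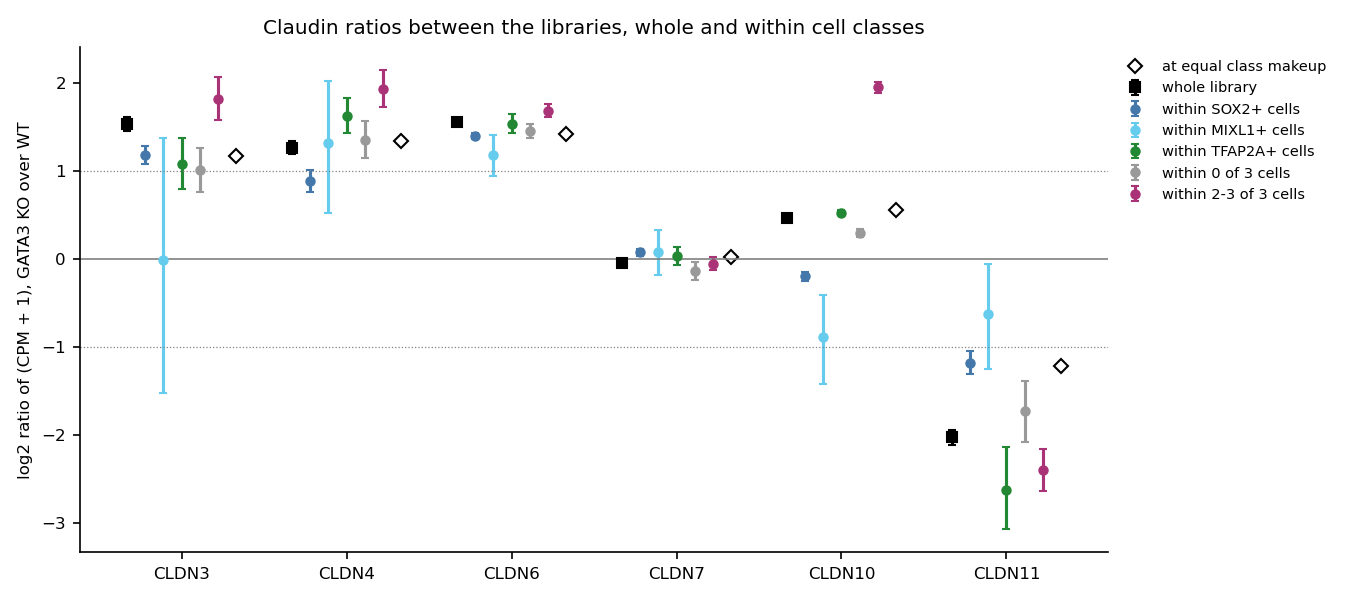
Log2 ratio of (CPM + 1), GATA3 KO over WT, for each claudin: whole libraries (black squares), within each class (coloured points with 95% counting intervals) and at equal class makeup (open diamonds), with dotted lines at 2-fold. CLDN6 lies between 1.18 and 1.68 in all classes, CLDN11 is below 0 in all, CLDN7 stays near 0, and CLDN10 runs from -0.89 to 1.95.

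At equal depth, the share of cells with a UMI was larger in the library labelled GATA3 KO for 4 of 6 members, beside 56.9% of 9588 genes. CLDN6 was found in 70.8% of cells labelled WT (68.9% to 72.7%) and 96.7% labelled GATA3 KO (96.1% to 97.2%), with medians of 2 and 4 UMIs in positive cells. CLDN3 was found in 13.4% and 33.7%, and CLDN4 in 11.8% and 25.9%. CLDN11 was found in 20.1% and 5.72%. These 4 differences were beyond counting error. For CLDN7 (74.8% and 76.1%) the intervals of both shares overlapped, with opposite bounds -1.82 to 4.53 percentage points apart. Those for CLDN10 (54.7% and 51.2%) also overlapped, at -7.15 to 0.192 points. Such limits are wider than a 95% interval of a difference, so they do not place the CLDN10 difference within counting error. A second random thinning turned the CLDN7 difference to -1.02 points, which left 3 of 6 members with a larger share. Over all kept cells without thinning, shallow cells included, the shares for CLDN6 were 89.8% and 95.4% and those for CLDN11 were 38.2% and 17.4%.

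The makeup of claudin RNA followed the classes. UMIs are counted once per molecule at the 3′ end, so levels of different claudins were set side by side without dividing by length. In SOX2-positive cells labelled WT, CLDN6 gave 32.6%, CLDN7 30.7% and CLDN10 19.4% of 19503 claudin UMIs. This CLDN10 share came from the low level described above, from which no expression is read. In MIXL1-positive cells CLDN7 led with 37.0%, and CLDN11 gave 11.6%. In TFAP2A-positive cells CLDN10 gave 83.6% labelled WT and 79.5% labelled GATA3 KO. In SOX2-positive cells labelled GATA3 KO, CLDN6 gave 54.5% and CLDN11 0.929%. All claudins together stood at 452.5 CPM in SOX2-positive and 2536 CPM in TFAP2A-positive cells labelled WT, and at 717 and 3831 CPM in those labelled GATA3 KO. The 6 members made up 93.6% to 99.5% of claudin UMIs in every class.

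**Figure D5:**
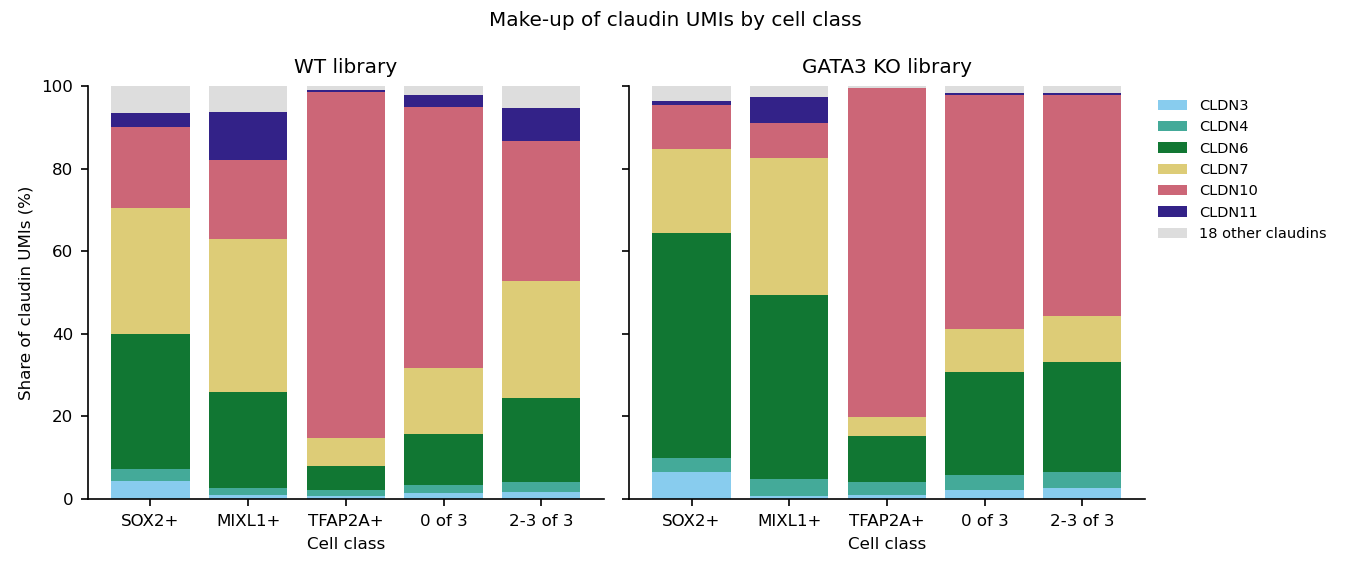
Share of claudin UMIs (%) given by each member and by the 18 other claudin genes, in each class of both libraries. CLDN10 takes 83.6% and 79.5% of the bar in TFAP2A-positive cells, CLDN6 and CLDN7 lead in SOX2-positive cells, and CLDN11 is widest in MIXL1-positive cells labelled WT (11.6%).

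Of the 18 other claudin genes, only CLDN12 passed the minimum between the libraries, at 15.3 CPM labelled WT and 12.1 CPM labelled GATA3 KO (log2 -0.31). CLDN2, CLDN8, CLDN17, CLDN20, CLDN24 and CLDN25 had no UMI in either library, beside a floor of 3 counts a library, equal to 0.0301 and 0.0171 CPM. CLDN9, the neighbour of CLDN6, had 0.351 and 0.879 CPM. Of the 20 tight-junction partners, 18 passed the minimum and none was called between the libraries, with a median log2 ratio of 0.07. EPCAM, the highest of them, had 288.6 and 293.6 CPM. Between classes, EPCAM was the only partner called higher in TFAP2A-positive cells, at 522 against 253 CPM in SOX2-positive cells labelled WT and at 605 against 241 CPM labelled GATA3 KO. It was 1 of 17 partners over the minimum labelled WT and 1 of 19 labelled GATA3 KO, beside 3.85% and 4.76% of all genes. The cingulin-like gene CGNL1 was the only partner called lower in MIXL1-positive than in SOX2-positive cells labelled WT, at 11.8 against 31.5 CPM. That was 1 of 18 partners over the minimum, beside 1.67% of all genes. CDH1, the E-cadherin gene, had 74.9 CPM in MIXL1-positive and 86.0 CPM in SOX2-positive cells.

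Genes within 200 kb of a member, of at least 5 CPM, gave a local comparison. Around CLDN6, 9 genes had log2 ratios between the libraries of -0.13 to 0.97 (median 0.42), all below its 1.55. CLDN3 and CLDN4 neighbour each other and were both called, while ABHD11, the nearest other gene, had 8.19 and 16.8 CPM (log2 0.95) and BUD23 had a log2 ratio of 0.01. Around CLDN11 the 2 genes were PRKCI (log2 -0.11) and SKIL (log2 -0.60). Around CLDN7 the 15 genes ran from -0.87 to 0.69, and around CLDN10 the 4 genes ran from -0.50 to 0.28.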

How the data were processed

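Single-cell RNA was measured in 1 library labelled WT and 1 labelled GATA3 KO. The authors made 10x Genomics 3′ v3 libraries and ran Cell Ranger 3.0.2 on its GRCh38 reference, and the deposited values are raw UMI counts per gene and cell, which were used unchanged. Cells over 7500 detected genes or over 25% mitochondrial counts were removed after the study's methods. Counts were summed over cells and scaled to CPM. Ratios were taken on log2(CPM + 1), with exact binomial intervals of the 2 counts, exact Poisson intervals of levels and Clopper-Pearson intervals of shares at 95%. A gene was called at a 2-fold difference when its mean was at least 5 CPM, and classes under 50 cells were not called. For classes and shares each cell was thinned to 10000 UMIs (seed 42), which left out 346 and 412 shallower cells. Levels in classes came from the full counts of the classed cells. Scrublet (scanpy 1.11.5) called 1 and 2 doublets, too few for a working caller, so doublets were not removed, and removal of the 116 and 310 highest scores was tried instead. TMM factors came from edgeR 4.0.16. The scripts were tested on simulated data. All 6 members were named in each comparison, other claudins and partners where called or highest of their list, and the 3 genes most alike where r was at least 0.2 in both libraries, of which 1 is not reported here. Positions came from GENCODE on GRCh38. The members, lists and classes were chosen with earlier results of these data known. Intervals and floors cover counting error only, and cells of 1 library are not replicates.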

Additional observations from a re-analysis of the deposited data

Results flagged for a closer look

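The ratio of CLDN10 between the libraries pointed in opposite directions in different cell classes, with every interval clear of 0. GATA3 KO over WT was -0.20 on the log2 scale (-0.25 to -0.15) in SOX2-positive cells and -0.89 (-1.42 to -0.41, from 33 UMIs in 16 cells) in MIXL1-positive cells. It was 0.52 (0.49 to 0.55) in TFAP2A-positive cells, 0.30 (0.25 to 0.34) in cells without a class gene and 1.95 (1.89 to 2.01) in cells with more than 1. In the last of these classes, 4.02% of cells labelled WT and 20.5% labelled GATA3 KO held 10 CLDN10 UMIs or more. That class held unlike cells in the 2 libraries. Its primitive streak genes summed to 249.8 CPM labelled WT and 26.4 CPM labelled GATA3 KO, and its amnion and trophectoderm genes to 37.2 and 80.9 CPM. The part of this makeup in the ratio was not tested. With 1 library per group the difference between classes was not tested. The value in SOX2-positive cells turned positive only with overlapping classes, and that in MIXL1-positive cells only when classed at 5000 or 20000 UMIs. The negative values compared the low levels of SOX2-positive and MIXL1-positive cells, a floor from which no expression was read.

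CLDN7 showed the same kind of split at a much smaller size, with a log2 ratio of 0.073 (0.03 to 0.11) in SOX2-positive cells and -0.14 (-0.24 to -0.04) in cells without a class gene. This difference was not tested either, and the classes in which its interval held 0 lay between -0.05 and 0.08.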

How the results depend on the processing

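Of 112 counts of called or detected members under alternative settings, 109 stayed within 1.5 times the reported count. With a minimum mean of 20 CPM the members lower in the library labelled GATA3 KO numbered 0, since CLDN11 fell under the minimum. With overlapping classes the members lower in TFAP2A-positive than in MIXL1-positive cells numbered 0. Without a minimum, 1 member was lower in TFAP2A-positive than in SOX2-positive cells labelled GATA3 KO, since CLDN11 (log2 -1.53, 1.66 against 6.66 CPM) was then counted. Of 564 single ratios and differences, 414 stayed within the counting interval of the reported value, and 28 changed sign, 9 of them for CLDN7 and 7 for CLDN3. In 25 of the 28 the reported value lay within 0.14 of 0 on the log2 scale or was the CLDN7 detection difference. The other 3 were CLDN10 ratios of GATA3 KO over WT: 0.60 in SOX2-positive cells with overlapping classes, and 1.21 and 0.77 in MIXL1-positive cells classed at 5000 and 20000 UMIs, and the cause was not tested. The log2 ratio of CLDN10 between the whole libraries ran from 0.02 to 0.49 over all settings, that of CLDN4 from 0.94 to 1.32, and that of CLDN6 from 1.37 to 1.56. TMM moved ratios by at most 0.10 on the log2 scale. A second random thinning left 3 instead of 4 members with a larger share in the library labelled GATA3 KO. The rarest class, 16 cells, set the widest intervals.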
